A study of Mus musculus with 12 samples.

Results

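The response of mouse embryonic fibroblasts to interleukin-17 (IL-17) was measured in cells whose IMP2 mRNA had been lowered with an siRNA. It rests on 6 of the 12 RNA-seq libraries of the series, chosen by their labels: 3 libraries of fibroblasts that received the IMP2 siRNA and then IL-17 (siIMP2_IL17), and 3 that received the IMP2 siRNA alone (siIMP2). The other 6 libraries hold the same contrast with a control siRNA (siControl_IL17 and siControl, 3 each) and served as the comparison. All 4 groups were wild-type C57BL/6 fibroblasts from embryos of embryonic day 12.5 to 13.5, transfected for 24 hours. The stimulated groups then received 200 ng/mL of IL-17 for 8 hours. In every group replicates 1 and 2 carry titles that begin with NA and replicate 3 a title that begins with RB160, so the title set was a term of the models unless stated otherwise, and per-library values below list the 2 NA libraries first and the RB160 library last. Whether replicates were grown apart is not stated, and a p-value therefore reflects library-to-library spread, possibly technical. The sequence of the siRNA is not given in the sources used here, and the siRNA lowered its target without removing it.

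IL-17 signals through a receptor of IL-17RA and IL-17RC, to which the adaptor Act1, encoded by Traf3ip2, binds. Act1 recruits TRAF proteins, and the signal reaches the NF-kB, MAP kinase and C/EBP transcription factors. In fibroblasts and other stromal cells IL-17 is known as an inducer of neutrophil and monocyte chemokines, IL-6 and acute-phase proteins, and as a signal that lengthens the life of short-lived inflammatory mRNAs. IMP2, encoded by Igf2bp2, is a cytoplasmic RNA-binding protein that binds many mRNAs and is known to affect their stability and translation.

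Promoters of some risen genes are shown so that the letters next to their start sites can be read, with an NF-kB-type motif marked. The windows cover 250 bases before to 50 bases after the start site, in the sense of the gene, from RefSeq on build GRCm38.p6. Of the 47 genes that rose after IL-17 by the test described below (0.343% of the 13702 tested), 26 matched this promoter table, and of the 23 that fell (0.168%) 13 did. The letters GGNNTTTCC, searched on both strands and called kB-type here, stood in 7 of the 26 risen and 0 of the 13 fallen promoters, and in 6.15% of the 10165 promoters of all tested genes that matched. Under 80% of either set matched, so these shares are void as a property of the sets. Under the looser letters GGNNTTNCC the counts were also 7 of 26 and 0 of 13, against 17.1% of all promoters. The genes with a match were Cxcl1, Nfkbia, Bcl3, Ccl20, Ier3, Ampd3 and Tmem176b. Other letters were searched on both strands too: TTNNGCAA (C/EBP-type) stood in 1 of the 26 risen promoters and 7.99% of all, and TGANTCA (AP-1-type) in 3 of 26 and 5.02% of all. A match is a description of the letters only. Capitals mark the kB-type matches of 5 genes in lists described below, with positions given for the first base, relative to the start site.
Cxcl1: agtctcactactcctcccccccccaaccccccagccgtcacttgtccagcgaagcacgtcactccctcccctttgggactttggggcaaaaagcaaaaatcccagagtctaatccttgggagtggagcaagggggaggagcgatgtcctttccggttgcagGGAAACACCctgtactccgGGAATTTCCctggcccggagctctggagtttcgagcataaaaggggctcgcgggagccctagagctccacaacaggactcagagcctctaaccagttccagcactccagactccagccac
Nfkbia: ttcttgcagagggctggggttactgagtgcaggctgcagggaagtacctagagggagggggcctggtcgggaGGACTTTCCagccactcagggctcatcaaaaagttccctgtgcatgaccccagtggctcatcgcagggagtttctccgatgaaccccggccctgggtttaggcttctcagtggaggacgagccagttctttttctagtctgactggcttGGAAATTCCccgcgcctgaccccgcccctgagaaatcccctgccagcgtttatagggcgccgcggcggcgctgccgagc
Bcl3: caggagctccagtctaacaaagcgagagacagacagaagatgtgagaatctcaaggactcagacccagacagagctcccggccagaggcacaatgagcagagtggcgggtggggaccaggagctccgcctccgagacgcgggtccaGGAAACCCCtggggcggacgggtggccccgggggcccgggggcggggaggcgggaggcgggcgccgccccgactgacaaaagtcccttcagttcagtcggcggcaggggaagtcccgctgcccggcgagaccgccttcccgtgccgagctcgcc
Ccl20: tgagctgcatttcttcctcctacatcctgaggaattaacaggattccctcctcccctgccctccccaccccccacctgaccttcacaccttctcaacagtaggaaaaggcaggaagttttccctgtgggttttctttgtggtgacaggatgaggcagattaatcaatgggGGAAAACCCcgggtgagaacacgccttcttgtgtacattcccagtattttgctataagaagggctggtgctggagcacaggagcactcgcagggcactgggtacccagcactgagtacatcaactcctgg
Ier3: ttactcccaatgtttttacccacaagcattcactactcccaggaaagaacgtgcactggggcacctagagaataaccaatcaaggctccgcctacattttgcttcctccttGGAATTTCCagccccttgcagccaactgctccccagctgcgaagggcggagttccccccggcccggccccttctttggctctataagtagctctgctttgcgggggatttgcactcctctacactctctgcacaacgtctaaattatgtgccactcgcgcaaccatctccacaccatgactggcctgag
The Cxcl1 window (chr5:90890995-90891294, plus strand) held matches at -89 and -70, the Nfkbia window (chr12:55492598-55492897, minus strand) at -178 and -29, and the Bcl3 window (chr7:19822706-19823005, minus strand) at -104. The Ccl20 window (chr1:83116516-83116815, plus strand) held 1 at -80 and the Ier3 window (chr17:35821463-35821762, plus strand) 1 at -139. The Zc3h12a window held none, and no window was matched for Nfkbiz.

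Exon counts summed over all genes ran from 33841054 to 44433699 in the 12 libraries. No replicate pair matched within sampling noise, with a chi-square per degree of freedom of 8.71 to 230.2. On a principal component analysis of log2 CPM (counts relative to library size, scaled by the TMM factors) the first component, with 62.1% of the variance, separated the title sets, and the second, with 17.3%, the siRNAs. The third, with 4.73%, was positive for all 6 stimulated and negative for all 6 unstimulated libraries. Mean Igf2bp2 was 23.6 ± 4.90 CPM with the IMP2 siRNA and IL-17 and 21.9 ± 3.01 CPM with the IMP2 siRNA alone. With the control siRNA it was 154 ± 13.5 CPM with IL-17 and 149 ± 17.1 CPM without (SD, n = 3 each), so 15% of its mRNA was left with the siRNA (log2 fold change -2.74 ± 0.10, edgeR adjusted p 2.39e-09). IL-17 did not change Igf2bp2 past the threshold in cells with the IMP2 siRNA (0.12 ± 0.15, edgeR adjusted p 0.992). Of 14 fibroblast markers 13 were measured and 0 changed, with a summed level of 18392 to 19500.0 CPM in siIMP2_IL17 and 19629.9 to 24477 CPM in siIMP2. Of 12 macrophage markers 4 were measured and 0 changed (9.39 to 12.1 CPM in siIMP2_IL17 and 8.37 to 10.3 CPM in siIMP2), and Adgre1, Tyrobp and C1qb had 0 counts. Of 9 endothelial markers 4 were measured (24.4 to 27.6 CPM in siIMP2_IL17 and 25.5 to 26.9 CPM in siIMP2), with 0 counts of Tie1, and of 8 epithelial markers 4 (50.7 to 166 CPM in siIMP2_IL17 and 69.2 to 207 CPM in siIMP2, mostly Krt19), with 0 changed in either list. Of 7 erythroid markers 1 was measured (0.486 to 1.09 CPM in siIMP2_IL17 and 0.439 to 0.993 CPM in siIMP2), of 8 neural markers 4 (430.3 to 999.7 CPM in siIMP2_IL17 and 435 to 958 CPM in siIMP2, mostly Nes), of 8 skeletal muscle markers 2 (53.3 to 204 CPM in siIMP2_IL17 and 90.4 to 252 CPM in siIMP2) and of 8 chondrocyte or osteoblast markers 6 (176 to 422 CPM in siIMP2_IL17 and 177 to 372 CPM in siIMP2), and 0 of these changed, with Sox10, Rbfox3, Myod1 and Myf5 at 0 counts. In the fit of the 6 libraries alone the fibroblast marker Pdgfrb (-0.25 ± 0.06 in the 12-library fit, adjusted p 0.0243 in the 6 libraries) and the epithelial marker Krt19 (-0.33 ± 0.09, 0.00721) passed. Their part in the results was not tested. In bulk RNA, fewer cells of a type and less RNA per cell cannot be told apart.

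IL-17 raised a small set of genes in cells with the IMP2 siRNA, among them the NF-kB co-regulator gene Nfkbiz, the chemokine genes Cxcl1, Ccl2, Ccl7 and Ccl20, the ribonuclease gene Zc3h12a and the arginine transporter gene Slc7a2. The genes that fell moved less and included the matrix protease gene Adamts5, the collagen gene Col11a1 and the adipogenic regulator gene Pparg. A gene rose or fell when edgeR's quasi-likelihood test, with group and title-set terms over all 12 libraries, gave a Benjamini-Hochberg adjusted p below 0.05 over the 13702 genes tested. All adjusted p below are from this fit unless another is named, and fold changes are log2 values, siIMP2_IL17 over siIMP2, with their standard error. That error was derived from the test, as the size of the fold change over the square root of the F statistic. Of the 13702 genes 70 changed (0.511%), 47 up (0.343%) and 23 down (0.168%). All 70 are annotated as protein coding. The median log2 fold change was 0.64 over the risen and -0.47 over the fallen genes, against -0.00616 over all genes tested. By at least 2-fold 17 genes rose and 1 fell, and 18 risen and 18 fallen genes changed by less than 1.5-fold. In 29 of the 47 risen genes all siIMP2_IL17 libraries stood above all siIMP2 libraries, which held for 2.48% of all genes. In 6 of the 23 fallen genes all siIMP2_IL17 libraries stood below, which held for 2.41% of all genes. All 70 had the same sign in both title sets, against 58.7% of all genes, which a fit over both sets favours. The difference was larger in the RB160 pair than in the mean of the NA libraries for 43 risen and 16 fallen genes. A pair of single libraries spreads more than means of 2, and the share over all genes was not counted. Nothing is therefore drawn from these counts.

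The number of changed genes depended on the fit. With the 6 libraries of the 2 groups alone, which have their own estimate of the spread, 349 of 13147 genes changed (2.65%), 188 up (1.43%) and 161 down (1.22%), and all 70 were among them. Without siIMP2 replicate 3 there were 13, without siIMP2_IL17 replicate 3 there were 17, without siIMP2 replicate 2 there were 18, without siIMP2 replicate 1 there were 25, without siIMP2_IL17 replicate 1 there were 27, and without siControl replicate 3 there were 117. The NA libraries alone gave 46, of which 32 were among the 70. The other 38 of the 70 include, of the genes described below, Gclm, Cyp7b1, Gfra2, Zmynd15, Dstn, Hmox1, Nfe2l1, Olfml2b, C1qtnf1, Tmem119, Prr5l, Cdon, Pparg, Id2, Dkk3, Cmklr1, Adra1d and Nrp1. Slc11a2, Sqrdl, Cd47, Cdh11, Rbpj, Map2k6 and Wdyhv1, also described below, are among these 38 too. Without the title-set term, or with a test against a log2 fold change of at least 1, 2 genes changed, Nfkbiz and Cxcl1 both times. Kept in all 12 fits that left out 1 library were 10 genes: Nfkbiz, Cxcl1, Nfkbia, Zc3h12a, A4galt, Slc7a2, Syt17, Tgfbr3, Col5a3 and Adamts5.

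Inhibitory and regulatory members of the NF-kB system rose. Nfkbiz encodes IkB-zeta, a nuclear IkB protein that serves as a co-activator at a subset of NF-kB target genes (chromosome 16, 55811375 to 55838899, minus strand, mm10). It measured 113, 113 and 102 CPM in the siIMP2_IL17 libraries, against 23.6, 25.8 and 18.3 CPM in the siIMP2 libraries, so every stimulated library stood far above every unstimulated one. Nfkbiz rose by 2.30 ± 0.12 (adjusted p 1.41e-06), the smallest p of all genes. Nfkbia, which encodes the NF-kB inhibitor IkB-alpha, measured 90.3, 89.4 and 58.3 CPM in the siIMP2_IL17 libraries, against 59.2, 63.5 and 37.8 CPM in the siIMP2 libraries. Its groups overlapped, with the RB160 library the lowest in each group, while in each set the stimulated libraries were higher. Nfkbia rose by 0.58 ± 0.05 (adjusted p 0.000441). Bcl3, another nuclear IkB protein, measured 18.5, 15.3 and 16.5 CPM in the siIMP2_IL17 libraries, against 9.88, 7.52 and 6.38 CPM in the siIMP2 libraries, with no overlap, and rose by 1.1 ± 0.16 (adjusted p 0.0100). The Bcl3 call was lost without siIMP2_IL17 replicate 3 or siIMP2 replicate 2 or 3 (adjusted p 0.0572 to 0.0760).

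Of the 14 measured NF-kB subunits and IkB proteins 3 rose and 0 fell, 13 had a positive fold change, and the list's median was 0.18 against -0.00616 over all genes. Relb, a subunit of the alternative NF-kB pathway, was at 0.33 ± 0.08 (adjusted p 0.157), and its siIMP2_IL17 libraries at 18.3, 17.3 and 16.6 CPM all stood above its siIMP2 libraries at 14.5, 14.0 and 13.2 CPM. Relb, Nfkb1 and Nfkb2 passed in the fit of the 6 libraries alone (adjusted p 0.0209, 0.0148 and 0.0436). Among 16 measured NF-kB feedback genes 2 rose and 0 fell. They were Nfkbia and Ier3, an immediate early gene known to restrain NF-kB signalling. Ier3 measured 231, 233 and 113 CPM in the siIMP2_IL17 libraries, against 159.9, 172 and 61.4 CPM in the siIMP2 libraries, with the RB160 libraries of each group the lowest and the stimulated libraries higher in each set. It rose by 0.62 ± 0.10 (adjusted p 0.0200), a call lost without siIMP2_IL17 replicate 1 or 3 or siIMP2 replicate 1, 2 or 3 (adjusted p 0.0555 to 0.158). Tnfaip3, which encodes the ubiquitin-editing enzyme A20, was at 0.27 ± 0.09 and did not pass (adjusted p 0.427, or 0.0262 in the 6 libraries alone).

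Chemokine genes had some of the largest changes. Cxcl1 encodes a ligand of CXCR2 that draws neutrophils (chromosome 5, 90891241 to 90893115, plus strand, mm10). It measured 43.0, 29.0 and 53.9 CPM in the siIMP2_IL17 libraries, against 5.23, 4.20 and 4.8 CPM in the siIMP2 libraries, with no overlap between the groups. Cxcl1 rose by 3.15 ± 0.24 (adjusted p 5.2e-05). Ccl2 and Ccl7, ligands of CCR2 that draw monocytes, lie near each other on chromosome 11 (82035571 to 82037453 and 82045712 to 82047525, both on the plus strand, mm10). Ccl2 measured 82.1, 63.1 and 112 CPM in the siIMP2_IL17 libraries, against 23.3, 15.1 and 24.4 CPM in the siIMP2 libraries. Ccl7 measured 52.1, 46.5 and 76.0 CPM in the siIMP2_IL17 libraries, against 14.6, 13.0 and 17.1 CPM in the siIMP2 libraries. In both genes the lowest stimulated library was above the highest unstimulated library. Ccl2 rose by 2.04 ± 0.32 (adjusted p 0.0123) and Ccl7 by 1.98 ± 0.30 (adjusted p 0.0120). The Ccl2 call was lost without siIMP2_IL17 replicate 3 or siIMP2 replicate 1 or 2 (adjusted p 0.0641 to 0.0761), and the Ccl7 call without siIMP2 replicate 1 or 2 (adjusted p 0.0658 and 0.0761). The robust fit called neither (adjusted p 0.128 and 0.117).

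Ccl20, which encodes the CCR6 ligand, was a low gene with 2.74, 2.23 and 0.486 CPM in the siIMP2_IL17 libraries, against 0.643, 0.379 and 0 CPM in the siIMP2 libraries. The RB160 libraries were lower than the NA libraries in each group, and within each set IL-17 gave the higher value. Ccl20 rose by 2.56 ± 0.48 (adjusted p 0.0377), a call lost without any 1 library other than siControl_IL17 replicate 3 or siControl replicate 1, 2 or 3 (adjusted p 0.0597 to 0.227). Cxcl16, the membrane-bound ligand of CXCR6, measured 15.1, 12.9 and 8.26 CPM in the siIMP2_IL17 libraries, against 7.78, 6.85 and 2.39 CPM in the siIMP2 libraries, with no overlap. Its log2 fold change was 1.23 ± 0.24 (adjusted p 0.0467), and the call was lost without any 1 library other than siIMP2_IL17 replicate 2 or siControl replicate 1 or 3 (adjusted p 0.0585 to 0.228), by limma-voom and by the robust fit (adjusted p 0.0595 and 0.148). Of 8 measured CXC and CX3C chemokine genes 2 rose and 0 fell (median 0.49), and of 9 measured CC chemokine genes 3 rose and 0 fell (median 0.21). Cxcl5, a CXCR2 ligand, had 8 counts over the siIMP2_IL17 libraries and 0 over the siIMP2 libraries, a lower bound of at least 2.68-fold higher when 0 is set to 3 counts per group, and did not pass (adjusted p 0.558). Cxcl12, the CXCR4 ligand, had 571, 612 and 887 CPM in siIMP2_IL17 and 556, 605 and 1283 CPM in siIMP2, and did not pass (-0.13 ± 0.17, adjusted p 0.996). The other 8 of 16 listed CXC and CX3C genes and 10 of 19 listed CC genes did not pass the count filter. Cxcl2 is an example, with 12 and 4 counts over the siIMP2_IL17 and the siIMP2 libraries.

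**Figure D1:**
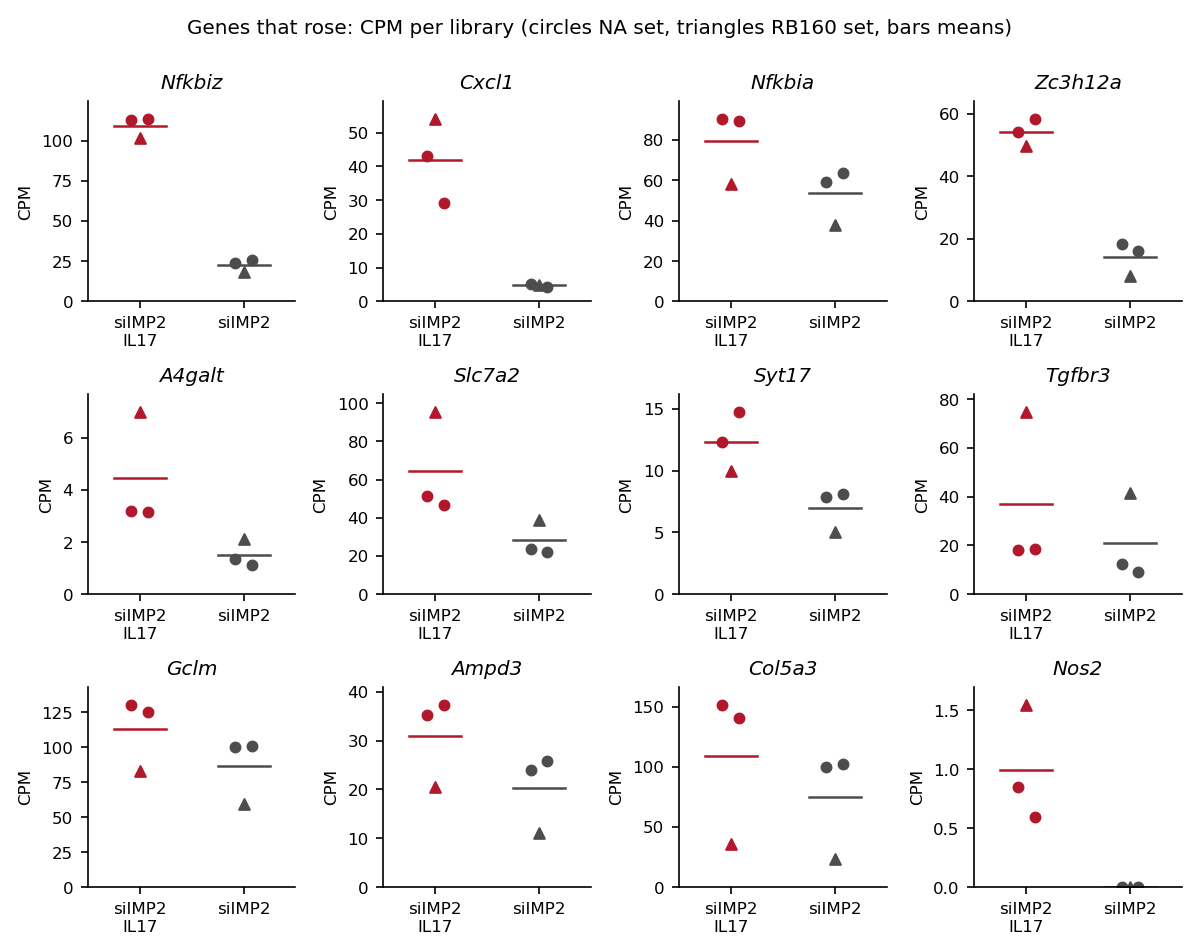
CPM of the 12 risen genes of smallest p in each library, with siIMP2_IL17 on the left (red) and siIMP2 on the right (grey), circles for NA libraries, triangles for RB160 libraries and bars for the mean of 3. For Nfkbiz, Cxcl1, Zc3h12a, A4galt, Slc7a2, Syt17 and Nos2 the groups do not overlap, while Nfkbia, Tgfbr3, Gclm, Ampd3 and Col5a3 overlap, with an RB160 level that differs from the NA level.

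Regulators of mRNA decay gave 1 call. Zc3h12a encodes Regnase-1, a ribonuclease that degrades inflammatory mRNAs (chromosome 4, 125118423 to 125127840, minus strand, mm10). It measured 54.2, 58.2 and 49.6 CPM in the siIMP2_IL17 libraries, against 18.3, 16.1 and 7.97 CPM in the siIMP2 libraries. The stimulated libraries were close to each other, and every one was above every siIMP2 library. Zc3h12a rose by 2.02 ± 0.20 (adjusted p 0.000499), by 1.71 between the NA libraries and 2.63 between the RB160 libraries. Of 17 measured RNA-binding regulators of inflammatory mRNA it was the only one that passed, and 0 fell (median 0.04). Zfp36l1, a decay factor that binds AU-rich elements, was at 0.32 ± 0.08 (adjusted p 0.114) and passed in the 6 libraries alone (adjusted p 0.0140). IMP family members and mRNAs reported to be bound by them, 15 measured, changed in 0 cases (median -0.03). H19, a long non-coding RNA reported to bind IMP proteins, was low at 0.334, 0.251 and 1.04 CPM in siIMP2_IL17 and 0.380, 0.146 and 2.48 CPM in siIMP2 (-0.74 ± 0.38, adjusted p 0.740). The sign of H19 turned when the NA libraries were fitted alone (0.16, adjusted p 1.00).

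Of 5 measured C/EBP family genes Cebpd was the only one that passed. Cebpd, a transcription factor of acute-phase genes, measured 46.8, 36.2 and 37.2 CPM in the siIMP2_IL17 libraries, against 19.1, 15 and 13.2 CPM in the siIMP2 libraries, with no overlap. Cebpd rose by 1.38 ± 0.26 (adjusted p 0.0381), a call lost without any 1 library other than siIMP2_IL17 replicate 2, siControl_IL17 replicate 3 or siControl replicate 1 or 3 (adjusted p 0.0596 to 0.214). Limma-voom and the robust fit did not call it either (adjusted p 0.0559 and 0.234). Cebpb measured 26.3, 22.7 and 20.3 CPM in the siIMP2_IL17 libraries, against 24.8, 22.3 and 15.6 CPM in the siIMP2 libraries, and its groups overlapped (0.16 ± 0.12, adjusted p 0.922).

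Fgf7, which encodes keratinocyte growth factor, was the only one of 24 measured cytokine and growth factor genes that passed (0 fell, median 0.15). Fgf7 measured 368, 367 and 277 CPM in the siIMP2_IL17 libraries, against 264, 242 and 157 CPM in the siIMP2 libraries, with no overlap and with the RB160 library the lowest of each group. It rose by 0.64 ± 0.13 (adjusted p 0.0486), the largest adjusted p among the risen genes, and the call was lost without any 1 library other than siControl replicate 1 or 3 (adjusted p 0.0598 to 0.253). Upper-quartile factors, limma-voom and the robust fit did not call it either (adjusted p 0.0503, 0.0540 and 0.117). Il6, a pleiotropic acute-phase cytokine, measured 8.33, 5.30 and 8.22 CPM in the siIMP2_IL17 libraries, against 2.54, 2.33 and 0.875 CPM in the siIMP2 libraries, with no overlap. Lif, of the same cytokine family, measured 149, 132 and 107 CPM in the siIMP2_IL17 libraries, against 76.3, 65.3 and 41.1 CPM in the siIMP2 libraries. The Lif groups did not overlap either. Il6 was at 2.05 ± 0.47 and Lif at 1.16 ± 0.26, and neither passed (adjusted p 0.0910 and 0.0910). Il6, Lif, Il1a, Il34 and Vegfa had a positive and Bmp4 a negative fold change that passed, beside Fgf7, in the 6 libraries alone (adjusted p 0.00261, 2.57e-05, 0.0133, 0.0454, 0.00443 and 0.00577).

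Acute-phase, complement and antimicrobial genes had positive fold changes in 15 of 17 measured members, but 0 rose and 0 fell by the test, and the median was 0.75. Lcn2, which encodes the iron-sequestering protein lipocalin-2, measured 20.5, 14.6 and 12.9 CPM in the siIMP2_IL17 libraries, against 3.68, 4.93 and 0.0709 CPM in the siIMP2 libraries. All stimulated libraries were above all unstimulated ones, and the RB160 pair differed by far more than the NA libraries (6.71 and 2.01 on the log2 scale). Its fold change was 2.89 ± 0.82 (adjusted p 0.234). C3, the central complement component, measured 12.2, 10.9 and 32.2 CPM in the siIMP2_IL17 libraries, against 8.30, 7.84 and 11.5 CPM in the siIMP2 libraries, where the groups overlapped (0.89 ± 0.24, adjusted p 0.183). Lcn2, C3, Cp, Mt1, Mt2 and Serpina3g passed in the 6 libraries alone, all with a positive fold change (adjusted p 0.00417, 0.00816, 0.0245, 0.0198, 0.00210 and 0.000856). Serpina3g belongs to a family of near-identical serpin genes, so its reads are uncertain.

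Nitric oxide and arginine genes gave 2 calls, both up. Nos2, the inducible nitric oxide synthase gene (chromosome 11, 78920787 to 78960254, plus strand, mm10), measured 0.851, 0.596 and 1.55 CPM in the siIMP2_IL17 libraries and had 0 counts in all 3 siIMP2 libraries. Its 117 counts over the stimulated libraries were at least 39.3-fold higher, with the group at 0 set to 3 counts, and it passed (adjusted p 0.0100). The Nos2 call was lost without siIMP2 replicate 3 (adjusted p 0.0765). Slc7a2, which encodes the cationic amino acid transporter CAT-2 that imports arginine, measured 51.4, 46.9 and 95.3 CPM in the siIMP2_IL17 libraries, against 23.7, 22.3 and 38.6 CPM in the siIMP2 libraries, with no overlap and with the RB160 libraries the highest in each group. Slc7a2 rose by 1.18 ± 0.13 (adjusted p 0.00173). Of 13 measured arginine, nitric oxide and polyamine genes these 2 rose and 0 fell (median 0.06). Odc1, the first enzyme of polyamine synthesis, and Smox, spermine oxidase, had fold changes of 0.18 ± 0.11 and 0.30 ± 0.09 and passed in the 6 libraries alone (adjusted p 0.0383 and 0.0254).

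A4galt, the synthase of the glycosphingolipid Gb3, measured 3.19, 3.17 and 6.98 CPM in the siIMP2_IL17 libraries, against 1.35, 1.11 and 2.10 CPM in the siIMP2 libraries. The groups did not overlap, and the RB160 libraries were the highest of each group. A4galt rose by 1.52 ± 0.15 (adjusted p 0.000656). Cyp7b1, an oxysterol hydroxylase, measured 6.17, 4.33 and 8.55 CPM in the siIMP2_IL17 libraries, against 3.30, 2.42 and 4.02 CPM in the siIMP2 libraries, with no overlap. Cyp7b1 rose by 0.96 ± 0.16 (adjusted p 0.0158), a call lost without siIMP2_IL17 replicate 1 or 3 or siIMP2 replicate 2 or 3 (adjusted p 0.0709 to 0.160). Of 15 measured prostaglandin and sphingolipid genes these were the only 2 that rose, and 0 fell (median 0.20). Ptgs2, the inducible cyclooxygenase, measured 1223, 1339 and 922 CPM in siIMP2_IL17 and 1059, 1018 and 456 CPM in siIMP2 (0.59 ± 0.23, adjusted p 0.532). The Ptgs2 groups overlapped across the title sets. Ptgs2, Ptges and Ptgis had positive fold changes that passed in the 6 libraries alone (adjusted p 0.0211, 0.0263 and 0.0214).

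Other genes among the 12 of smallest p have other roles. Syt17, a synaptotagmin, measured 12.3, 14.7 and 9.96 CPM in the siIMP2_IL17 libraries, against 7.84, 8.14 and 5.04 CPM in the siIMP2 libraries, without overlap. Tgfbr3, the TGF-beta co-receptor betaglycan, measured 18.2, 18.4 and 74.7 CPM in the siIMP2_IL17 libraries, against 12.3, 9.22 and 41.4 CPM in the siIMP2 libraries, with the RB160 libraries well above the NA libraries in both groups and the stimulated ones higher in each set. Syt17 rose by 0.83 ± 0.11 and Tgfbr3 by 0.80 ± 0.10 (adjusted p 0.00461 and 0.00464). Gclm, the modifier subunit of glutathione's rate-limiting enzyme, measured 130.3, 125 and 83.0 CPM in the siIMP2_IL17 libraries, against 100.1, 101 and 59.7 CPM in the siIMP2 libraries. Ampd3, an AMP deaminase, measured 35.3, 37.3 and 20.4 CPM in the siIMP2_IL17 libraries, against 24.0, 25.8 and 11.1 CPM in the siIMP2 libraries. For both the RB160 libraries were the lowest of each group, and the stimulated libraries were higher within each set. Gclm rose by 0.39 ± 0.05 and Ampd3 by 0.66 ± 0.09 (adjusted p 0.00831 and 0.00874). The Gclm call was lost without siIMP2 replicate 3 (adjusted p 0.0671) and the Ampd3 call without siIMP2 replicate 3 (adjusted p 0.0609).

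Col5a3, a chain of type V collagen, measured 152, 140.4 and 35.9 CPM in the siIMP2_IL17 libraries, against 99.8, 102 and 22.9 CPM in the siIMP2 libraries. The RB160 libraries were far below the NA libraries, and within each set IL-17 gave the higher level. Col5a3 rose by 0.57 ± 0.08 (adjusted p 0.00981). Lrig1, a transmembrane inhibitor of growth factor receptors, measured 109.7, 109 and 96.3 CPM in the siIMP2_IL17 libraries, against 81.9, 74.1 and 55.6 CPM in the siIMP2 libraries, without overlap. It rose by 0.60 ± 0.09 (adjusted p 0.0100), and the call was lost without siIMP2 replicate 2 or 3 (adjusted p 0.0652 and 0.0680). Of the 47 risen genes 18 belong to at least 1 of the 28 lists and 29 to none. Among the 29, those with fold changes above 1 were Kcnn3, a calcium-activated potassium channel (1.59 ± 0.25), Ankk1, a kinase (1.72 ± 0.28), Gfra2, the neurturin receptor (1.82 ± 0.30), Zmynd15 (1.43 ± 0.24) and Prnd, the prion-like protein doppel (1.86 ± 0.35). Their adjusted p ran from 0.0123 to 0.0369. These 5 were lost in 3 to 9 of the 12 fits that left out 1 library. Kcnn3 and Prnd also lost their call in the robust fit, and Prnd and Zmynd15 in the count of uniquely mapped reads.

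Levels per length differed widely among the risen genes. On the authors' deposited TPM scale (transcripts scaled for exon length and depth) the highest mean levels in siIMP2_IL17 were those of Dstn, an actin-depolymerising factor, at 2939 TPM, Hmox1, heme oxygenase-1, at 649 TPM, Ier3 at 454 TPM, Nfe2l1 at 294 TPM and Fgf7 at 283 TPM. Of the chemokine genes Ccl2 averaged 214 TPM in siIMP2_IL17 and 51.1 TPM in siIMP2. Cxcl1 averaged 125 TPM in siIMP2_IL17 and 13.7 TPM in siIMP2. Ccl20 was far lower, with 3.31 TPM in siIMP2_IL17 and 0.601 TPM in siIMP2. The lowest levels in siIMP2_IL17 were those of Nos2 (0.654 TPM), Zmynd15 (0.586 TPM) and Gfra2 (0.576 TPM).

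Of the 23 fallen genes 9 belong to at least 1 list and 14 to none, and 18 changed by less than 1.5-fold. Adamts5, an aggrecan-cleaving protease (chromosome 16, 85858170 to 85901125, minus strand, mm10), measured 15.3, 14.9 and 34.4 CPM in the siIMP2_IL17 libraries, against 21.6, 22.3 and 54.2 CPM in the siIMP2 libraries. In each set the stimulated libraries were lower, while the RB160 libraries were above the NA libraries in both groups. Adamts5 fell by 0.58 ± 0.07 on the log2 scale (adjusted p 0.00169). Of 13 measured ADAMTS proteases it was the only one that changed (median -0.09), and in the 6 libraries alone Adamts12 fell too (-0.31 ± 0.11 in the 12-library fit, adjusted p 0.0142 in the 6 libraries). Olfml2b, a secreted matrix protein, measured 77.3, 77.5 and 153 CPM in the siIMP2_IL17 libraries, against 108, 97.1 and 232 CPM in the siIMP2 libraries, again lower after IL-17 within each set. It fell by 0.47 ± 0.07 (adjusted p 0.0100), a call lost without siIMP2_IL17 replicate 3 or siIMP2 replicate 1 or 3 (adjusted p 0.0582 to 0.0760). Col11a1, a fibrillar collagen chain of cartilage, measured 154, 151 and 257 CPM in the siIMP2_IL17 libraries, against 199, 198 and 394 CPM in the siIMP2 libraries, lower after IL-17 within each set and highest in RB160. It fell by 0.46 ± 0.07 (adjusted p 0.0107), a call lost without siIMP2_IL17 replicate 3 or siIMP2 replicate 3 (adjusted p 0.0729 and 0.0765).

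Among 25 measured collagen chains 1 rose (Col5a3) and 1 fell (Col11a1), with a median of -0.13. In the 6 libraries alone 2 collagen chains rose and 2 fell, with Col18a1 among the risen (adjusted p 0.00816). Of 28 other matrix genes 0 rose, 1 fell and 5 were positive (median -0.13), and 2 fell in the 6 libraries alone. Of 13 metalloproteinases and TIMPs 0 changed (median -0.01). Mmp3, stromelysin-1, measured 3.25, 2.35 and 0.950 CPM in the siIMP2_IL17 libraries, against 2.40, 1.52 and 0.0473 CPM in the siIMP2 libraries. Mmp13, a collagenase, measured 10.9, 11.5 and 2.03 CPM in the siIMP2_IL17 libraries, against 9.74, 8.89 and 0.378 CPM in the siIMP2 libraries. Both overlapped between the groups, and in both the RB160 pair differed more than the NA libraries. Neither passed (1.14 ± 0.65, adjusted p 0.792 for Mmp3, and 0.64 ± 0.30, adjusted p 0.655 for Mmp13). All 17 measured contractile genes had a negative fold change, 0 passed, and the median was -0.15. Vcl and Myh11 passed in the 6 libraries alone (adjusted p 0.0314 and 0.0430).

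Pparg, the nuclear receptor that directs fat cell differentiation, measured 0.456, 0.376 and 2.58 CPM in the siIMP2_IL17 libraries, against 1.08, 0.671 and 5.15 CPM in the siIMP2 libraries, with the RB160 libraries the highest of each group and the stimulated libraries lower within each set. It fell by 1.02 ± 0.17 (adjusted p 0.0205), the only fall of at least 2-fold, and the call was lost without siIMP2_IL17 replicate 1, 2 or 3 or siIMP2 replicate 1 or 3 (adjusted p 0.0606 to 0.253). C1qtnf1, a secreted adiponectin paralog, measured 5.23, 5.05 and 14.0 CPM in the siIMP2_IL17 libraries, against 7.63, 6.79 and 23.7 CPM in the siIMP2 libraries and was lower after IL-17 within each set. It fell by 0.60 ± 0.09 (adjusted p 0.0100), a call lost without siIMP2_IL17 replicate 3 or siIMP2 replicate 3 (adjusted p 0.0842 and 0.0907). The C1qtnf1 call was also lost in the count of uniquely mapped reads (adjusted p 0.241). Of 13 measured adipogenic regulators 0 rose and these 2 fell (median -0.20).

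Of 31 measured developmental patterning genes 0 rose and 3 fell (median -0.16), and in the 6 libraries alone 1 rose and 6 fell. Cdon, a Hedgehog co-receptor, measured 11.6, 12 and 32.9 CPM in the siIMP2_IL17 libraries, against 14.6, 17.6 and 46.9 CPM in the siIMP2 libraries. Dkk3, a secreted Dickkopf family protein, measured 16.5, 14.9 and 86.6 CPM in the siIMP2_IL17 libraries, against 22.1, 20.1 and 137 CPM in the siIMP2 libraries. Sema3a, a secreted axon guidance ligand, measured 117, 132 and 173 CPM in the siIMP2_IL17 libraries, against 172, 174 and 232 CPM in the siIMP2 libraries. In all 3 the stimulated libraries were the lower within each set, and the RB160 libraries the highest of each group. Cdon fell by 0.47 ± 0.07 (adjusted p 0.0125), Dkk3 by 0.52 ± 0.10 (adjusted p 0.0388) and Sema3a by 0.46 ± 0.09 (adjusted p 0.0424). The Cdon call was lost without siIMP2_IL17 replicate 1 or 3 or siIMP2 replicate 2 or 3 (adjusted p 0.0700 to 0.103). The Dkk3 call was lost without any 1 library other than siIMP2_IL17 replicate 1 or siControl replicate 2 or 3 (adjusted p 0.0507 to 0.279), and the Sema3a call without any 1 library other than siControl_IL17 replicate 2 or 3 or siControl replicate 3 (adjusted p 0.0509 to 0.260). Id2, an inhibitor of helix-loop-helix factors and a BMP target, measured 23.5, 25.5 and 36.3 CPM in the siIMP2_IL17 libraries, against 30.3, 32.9 and 45.9 CPM in the siIMP2 libraries, lower after IL-17 within each set. Id2 fell by 0.36 ± 0.07 (adjusted p 0.0369), a call lost without any 1 library other than siControl_IL17 replicate 3 or siControl replicate 1 or 3 (adjusted p 0.0526 to 0.241). Of 24 measured TGF-beta and BMP signalling genes Tgfbr3 rose and Id2 fell (median 0.04), and Tgfb3, a TGF-beta ligand, fell too in the 6 libraries alone (adjusted p 0.00843). Ptch1, a Hedgehog receptor and target, had a positive fold change of 0.41 ± 0.08 (adjusted p 0.0511, or 0.00277 in the 6 libraries alone).

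Tmem119, a transmembrane protein of bone-forming cells, measured 10.7, 10.7 and 11.5 CPM in the siIMP2_IL17 libraries, against 15.9, 14.7 and 17.9 CPM in the siIMP2 libraries. Prr5l, an mTORC2-associated protein, measured 7.90, 8.15 and 7.80 CPM in the siIMP2_IL17 libraries, against 12.4, 11.6 and 11.7 CPM in the siIMP2 libraries. For both, every stimulated library was below every unstimulated one, and the RB160 values were close to the NA values. Tmem119 fell by 0.56 ± 0.08 and Prr5l by 0.58 ± 0.09 (adjusted p 0.0107 and 0.0111). The Tmem119 call was lost without siIMP2_IL17 replicate 3 or siIMP2 replicate 1 or 3 (adjusted p 0.0652 to 0.0768) and the Prr5l call without siIMP2_IL17 replicate 1 or 3 or siIMP2 replicate 1, 2 or 3 (adjusted p 0.0615 to 0.0743). Pde8b, a cyclic AMP phosphodiesterase, measured 16.2, 17.0 and 22.4 CPM in the siIMP2_IL17 libraries, against 22.4, 23.1 and 33.0 CPM in the siIMP2 libraries, lower after IL-17 within each set. It fell by 0.49 ± 0.08 (adjusted p 0.0120), a call lost without siIMP2_IL17 replicate 1 or 3 or siIMP2 replicate 2 or 3 (adjusted p 0.0510 to 0.0842). The other fallen genes include Cmklr1, the chemerin receptor (-0.89 ± 0.15, adjusted p 0.0177), Adra1d, an alpha-1 adrenergic receptor (-0.84 ± 0.15, adjusted p 0.0314), and Nrp1, a co-receptor of semaphorins and VEGF (-0.39 ± 0.07, adjusted p 0.0381). Cmklr1 was lost in 5, Adra1d in 6 and Nrp1 in 8 of the 12 fits that left out 1 library.

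**Figure D2:**
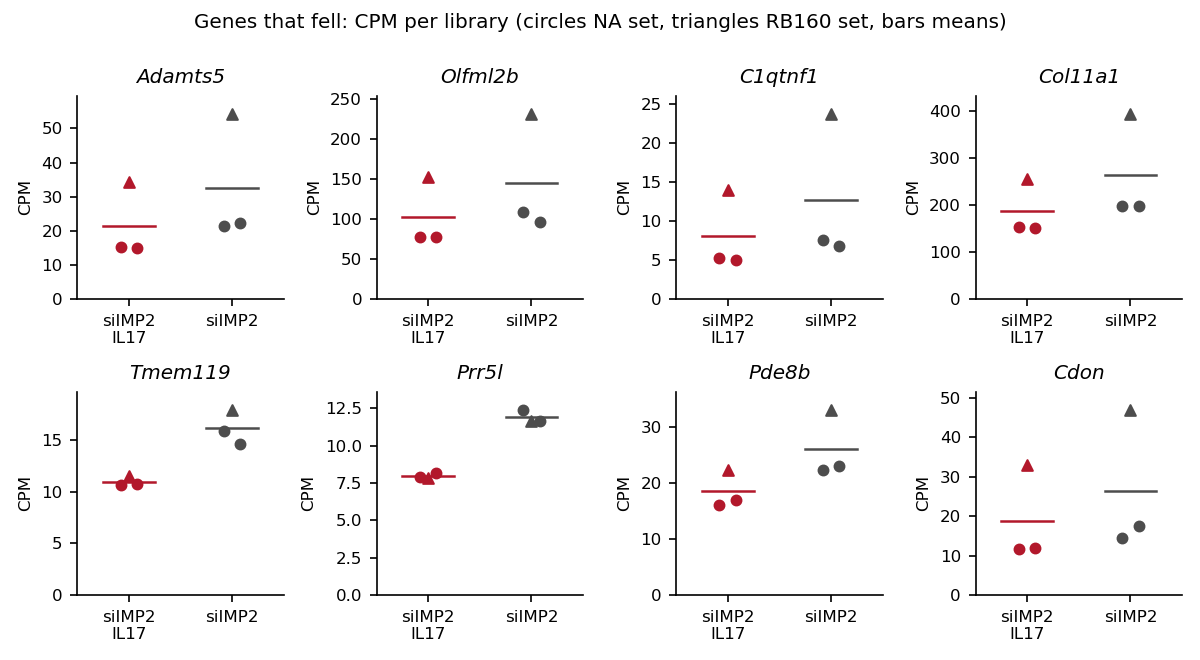
CPM of the 8 fallen genes of smallest p in each library, with siIMP2_IL17 on the left (red) and siIMP2 on the right (grey), circles for NA libraries, triangles for RB160 libraries and bars for the mean of 3. Tmem119 and Prr5l are the 2 genes whose groups do not overlap, and in the others the RB160 libraries lie above the NA libraries in both groups.

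Of 35 genes listed as IL-17 targets 27 were measured, 8 rose (Nfkbiz, Cxcl1, Zc3h12a, Nos2, Ccl7, Ccl2, Ccl20 and Cebpd) and 0 fell. Of the 27, 24 had a positive fold change, and the median was 1.31. In the 6 libraries alone 13 rose and 0 fell, with C3, Il6, Lcn2, Lif and Ptgs2 added. The genes of the IL-17 receptor and its adaptors gave 0 calls of 17 measured (median -0.00594), and in the 6 libraries alone the adaptor gene Traf2 rose (0.23 ± 0.07 in the 12-library fit, adjusted p 0.0304 in the 6 libraries). Il17ra measured 33.5, 35.5 and 32.5 CPM in the siIMP2_IL17 libraries, against 34.9, 36.4 and 31.0 CPM in the siIMP2 libraries. Traf3ip2 measured 37.4, 35.0 and 29.3 CPM in the siIMP2_IL17 libraries, against 33.2, 34.6 and 24.0 CPM in the siIMP2 libraries. Both overlapped between the groups. Il17ra was at -0.00694 ± 0.06, adjusted p 1.00, and Traf3ip2 at 0.16 ± 0.08, adjusted p 0.722. Immediate early genes (18 measured, median 0.01), interferon-stimulated genes (15, -0.06), glycolysis and hypoxia genes (24, 0.06), cholesterol synthesis genes (22, -0.09) and unfolded protein response genes (21, 0.00513) changed in 0 cases. Of these lists the glycolysis and hypoxia genes alone had calls in the 6 libraries alone, with 2 risen, among them the hexokinase gene Hk2 (adjusted p 0.0387), and 1 fallen, Pfkfb4 (adjusted p 0.0350). Cell cycle genes (35, -0.10) changed in 0 cases too, with 3 positive. Adhesion and antigen presentation genes (13, 0.08) also gave 0 calls, and Selp, the adhesion receptor P-selectin, came nearest (1.4 ± 0.29, adjusted p 0.0635, or 0.00313 in the 6 libraries alone).

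**Figure D3:**
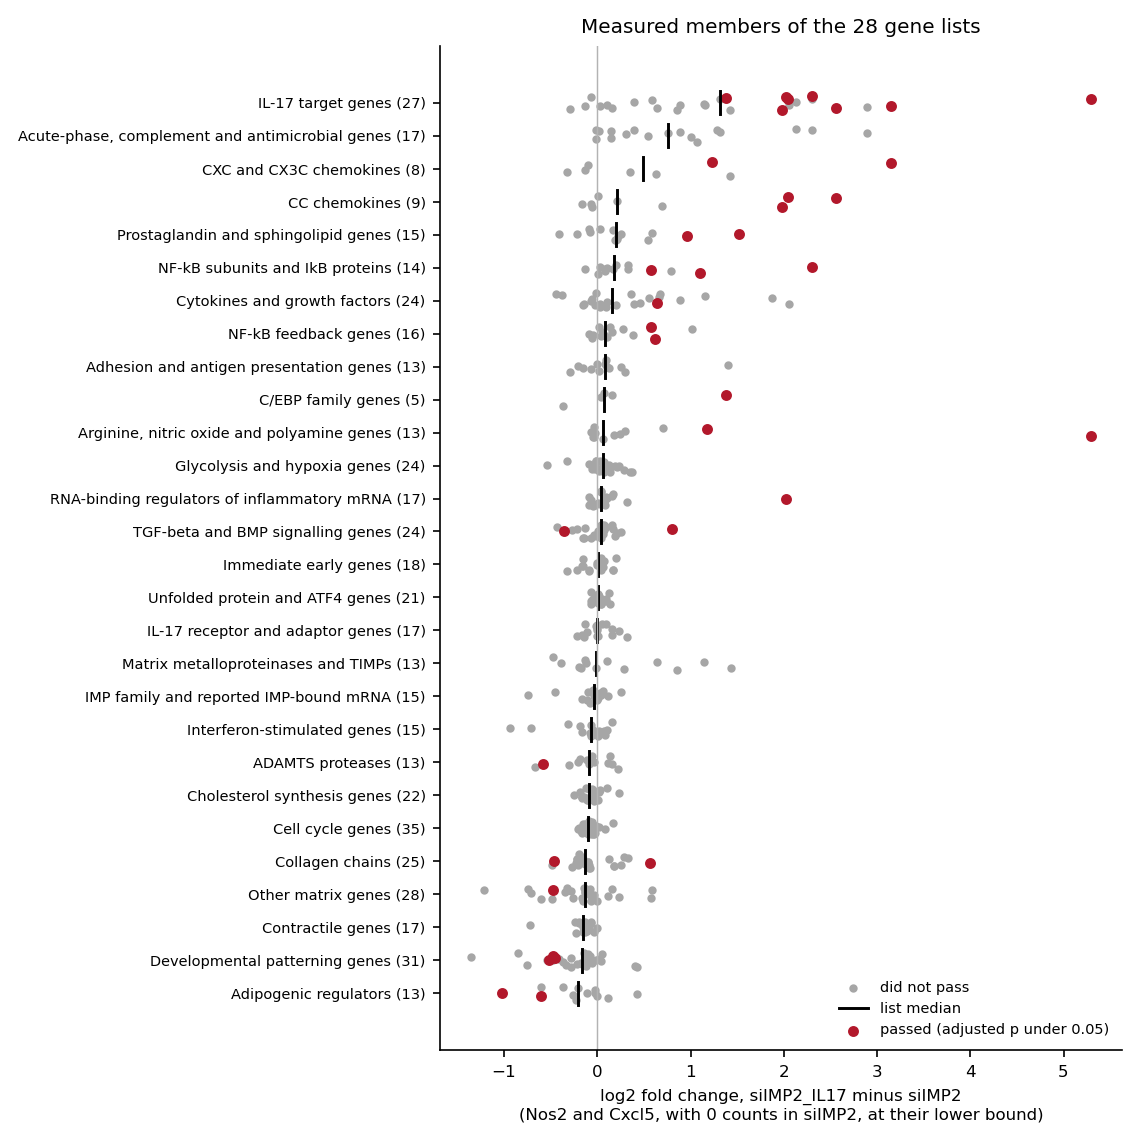
Log2 fold change (siIMP2_IL17 over siIMP2) of every measured member of the 28 lists, each row 1 list with its number of measured members, red points for genes that passed, grey points for the others and black ticks for list medians. Nos2 and Cxcl5, with 0 counts in siIMP2, are drawn at their lower bound, and the IL-17 target list has the highest median, 1.31.

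The same contrast with the control siRNA changed 58 genes (0.423%) in the same fit. Of these, 36 also changed with the IMP2 siRNA, 51.4% of the 70 and 62.1% of the 58, and they comprise 25 risen and 11 fallen genes. All 70 genes had the same sign with the control siRNA, against 69.4% of all genes tested. The responses share no libraries but share the fit. The median over the 47 risen genes was 0.64 with the IMP2 siRNA and 0.60 with the control siRNA, and over the 23 fallen genes -0.47 with the IMP2 siRNA and -0.40 with the control siRNA. The fold change was larger in size with the IMP2 siRNA for 42 of 47 risen and 17 of 23 fallen genes, a direction that choosing genes by the IMP2 siRNA fit favours. Of the 58 genes chosen by the control siRNA fit, 32 were larger with the control siRNA.

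The difference between the responses was tested for every gene, and 0 of 13702 passed by edgeR (lowest adjusted p 1.00, with 152 genes at an unadjusted p below 0.05). DESeq2 also gave 0, with 71 genes at an unadjusted p below 0.05. Among the 70 genes 4 risen and 3 fallen had an unadjusted p of the difference below 0.05. The response with the IMP2 siRNA, by which the 70 were chosen, is part of this difference, so the choice favours a low p. A4galt rose by 1.52 ± 0.15 with the IMP2 siRNA and 0.92 ± 0.13 with the control siRNA (difference 0.60 ± 0.20, unadjusted p 0.00997). C1qtnf1 was at -0.60 ± 0.09 with the IMP2 siRNA and -0.22 ± 0.08 with the control siRNA (difference -0.38 ± 0.12, unadjusted p 0.00663). Pparg was at -1.02 ± 0.17 with the IMP2 siRNA and -0.45 ± 0.13 with the control siRNA (difference -0.57 ± 0.22, unadjusted p 0.0216). Cdon was at -0.47 ± 0.07 with the IMP2 siRNA and -0.17 ± 0.07 with the control siRNA (difference -0.30 ± 0.10, unadjusted p 0.0113). With an adjusted p of 1.00 none of these is shown to differ. For the leading genes the difference, with its SE, was 0.50 ± 0.31 for Cxcl1, 0.25 ± 0.17 for Nfkbiz, 0.50 ± 0.42 for Ccl2 and 0.05 ± 0.27 for Zc3h12a. Over all genes the smallest unadjusted p were those of Mob3b (1.55 ± 0.38, unadjusted p 0.00136) and of Sfrp4, a secreted Wnt antagonist (-2.99 ± 0.74, unadjusted p 0.00145). Both are low genes. Mob3b had 76 counts over the siIMP2_IL17 and 32 over the siIMP2 libraries, and Sfrp4 had 4 and 18.

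**Figure D4:**
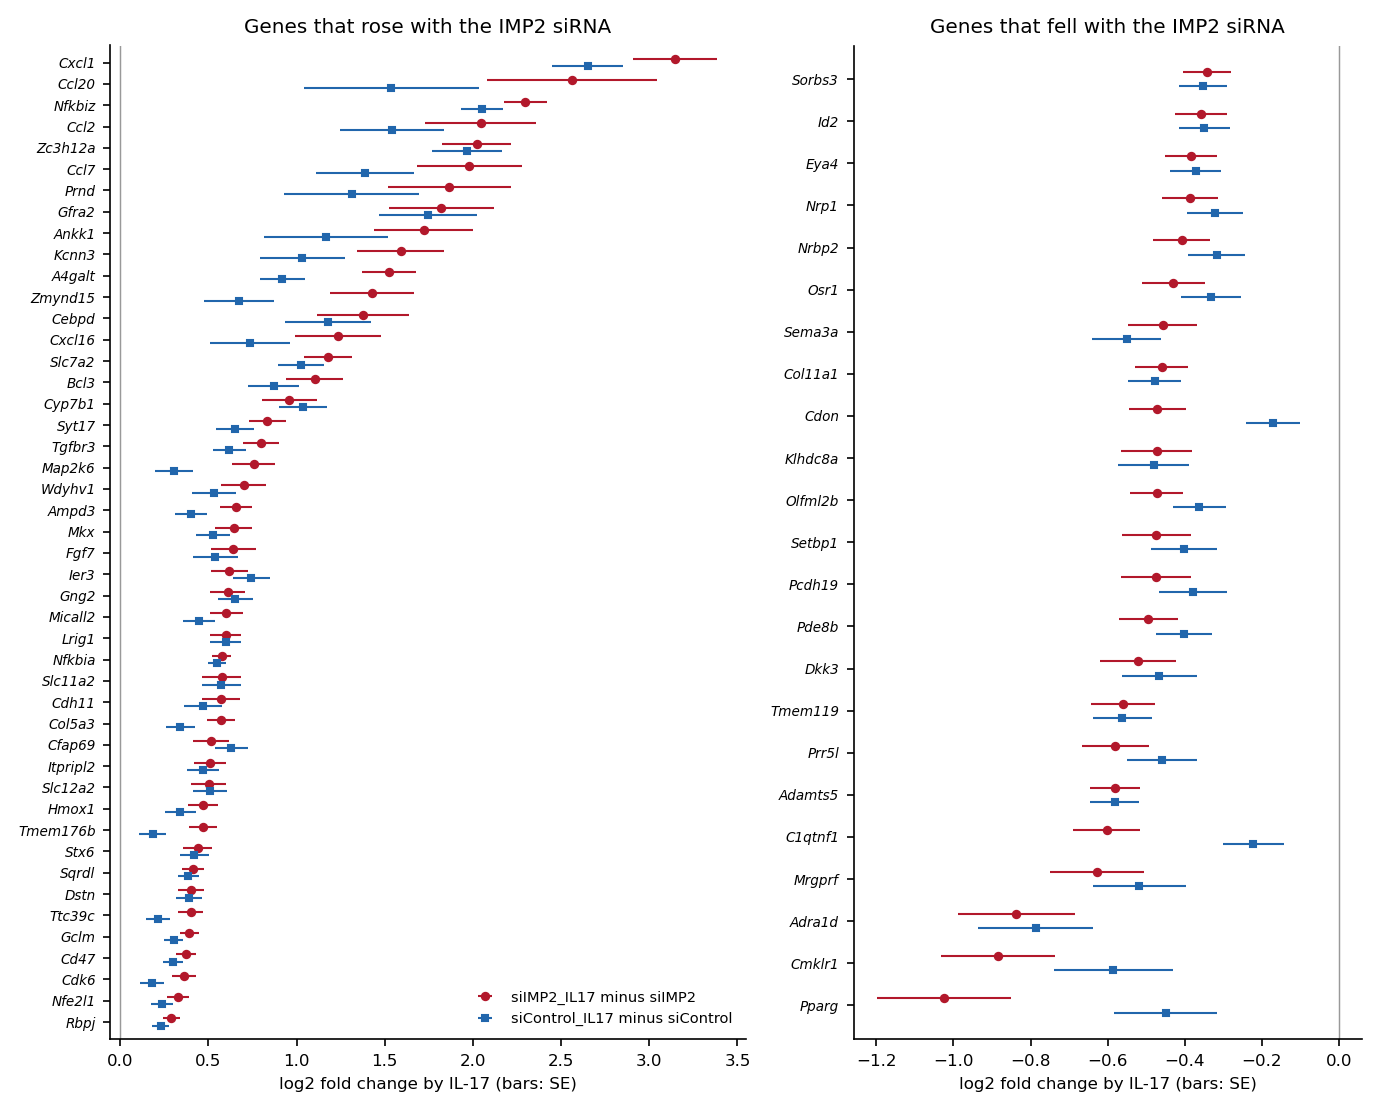
Log2 fold change by IL-17 with its SE for the genes that rose (left panel, without Nos2, whose siIMP2 count is 0) and fell (right panel) with the IMP2 siRNA. Red circles are the IMP2 siRNA and blue squares the control siRNA. All genes drawn have the same sign with both siRNAs, and A4galt, at 1.52 with the IMP2 and 0.92 with the control siRNA, is among the risen genes with a visible gap.

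A like fold change could start from another level. Cxcl1 averaged 42.0 CPM in siIMP2_IL17, 4.74 CPM in siIMP2, 203 CPM in siControl_IL17 and 32.3 CPM in siControl, so the stimulated level with the IMP2 siRNA was 20.6% of that with the control siRNA. Ccl2 averaged 85.7 CPM in siIMP2_IL17, 20.9 CPM in siIMP2, 274 CPM in siControl_IL17 and 94.8 CPM in siControl (31.3%). For Nfkbiz, where the siRNA groups lay closer, the means were 109 CPM in siIMP2_IL17, 22.6 CPM in siIMP2, 131 CPM in siControl_IL17 and 31.9 CPM in siControl (83.6%). Nos2 was low, at 0.998 CPM in siIMP2_IL17, 0 CPM in siIMP2, 2.18 CPM in siControl_IL17 and 0.0671 CPM in siControl. A4galt was at 4.45 CPM in siIMP2_IL17, 1.52 CPM in siIMP2, 11.3 CPM in siControl_IL17 and 5.93 CPM in siControl. The mean level in siIMP2_IL17 was below that in siControl_IL17 for 31 of the 47 risen genes, and below that of unstimulated siControl for 15. For the 23 fallen genes these counts were 17 and 22. The share over all genes was not counted, so a lower level is not shown to be particular to the risen genes. These levels are a description, and a test of the siRNA contrast is given here for Igf2bp2 alone.

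Reads of a gene outside its annotated exons, counted as total gene reads minus exon reads, were fitted in the same way. Such reads can come from introns of unspliced RNA, from unannotated exons or from overlapping genes, and the strand setting is not given in the sources used here. They were 4.92, 4.67 and 6.28% of gene reads in the siIMP2_IL17 libraries and 4.60, 5.09 and 5.34% in the siIMP2 libraries. Of 12463 genes tested 14 changed (0.112%), 12 up and 2 down, and 7 of these also changed in exon counts: Cxcl1, Ccl2, Slc7a2, Micall2, Ccl7, Bcl3 and Lrig1. In CPM of reads outside exons, Cxcl1 had 37.9, 34.1 and 89.8 in the siIMP2_IL17 libraries, against 7.22, 15.8 and 23.6 in the siIMP2 libraries. On the same scale Ccl2 had 88.6, 85.3 and 94.1 in the siIMP2_IL17 libraries, against 29.5, 20.5 and 28.7 in the siIMP2 libraries. Neither gene's groups overlapped. The change outside exons was 1.78 ± 0.22 for Cxcl1 (adjusted p 0.000379), 1.79 ± 0.24 for Ccl2 (adjusted p 0.000547) and 1.23 ± 0.18 for Slc7a2 (adjusted p 0.00173). The other risen genes by these reads were Serpina3h, Rgs16, Prl2c2, Selp and Serpina3g, of which the Serpina3 and Prl2c families hold near-identical copies whose reads are uncertain. Fzd6, a Wnt receptor, and Ccdc80, a matrix protein, fell by 0.63 ± 0.12 and 0.51 ± 0.10 (adjusted p 0.0340 and 0.0446). The Fzd6 call was lost in 5 and the Ccdc80 call in 7 of the 12 fits that left out 1 library. Both calls were also lost with the NA libraries alone.

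Exon and outside-exon changes ran in the same direction for all 40 risen and all 22 fallen genes that could be tested, against 61.4% of all genes, and both kinds of read come from the same libraries. The medians were 0.57 outside exons and 0.63 in exons over the 40 risen genes, and -0.34 outside exons and -0.47 in exons over the 22 fallen genes. Nfkbiz was at 0.13 ± 0.14 outside exons (unadjusted p 0.359) beside 2.30 ± 0.12 in exons, from 901 reads outside exons over the siIMP2_IL17 libraries and 779 over the siIMP2 libraries. Zc3h12a was at 0.69 ± 0.16 outside exons (adjusted p 0.109) and 2.02 ± 0.20 in exons. The sign of Nfkbiz outside exons turned to -0.10 with the NA libraries alone. Cxcl1 was at 1.78 ± 0.22 outside exons and 3.15 ± 0.24 in exons. Small values outside exons were also those of Wdyhv1 (0.06 ± 0.11, against 0.70 ± 0.13 in exons), Gclm (0.07 ± 0.12, against 0.39 ± 0.05 in exons) and Prr5l (-0.02 ± 0.15, against -0.58 ± 0.09 in exons). Zmynd15 (0.17 ± 0.55, against 1.43 ± 0.24 in exons) had 21 reads outside exons over the siIMP2_IL17 libraries and 19 over the siIMP2 libraries. Pparg (-0.09 ± 0.56, against -1.02 ± 0.17 in exons) had 23 such reads over the siIMP2_IL17 libraries and 19 over the siIMP2 libraries. The difference between exon and outside-exon changes was not tested.

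**Figure D5:**
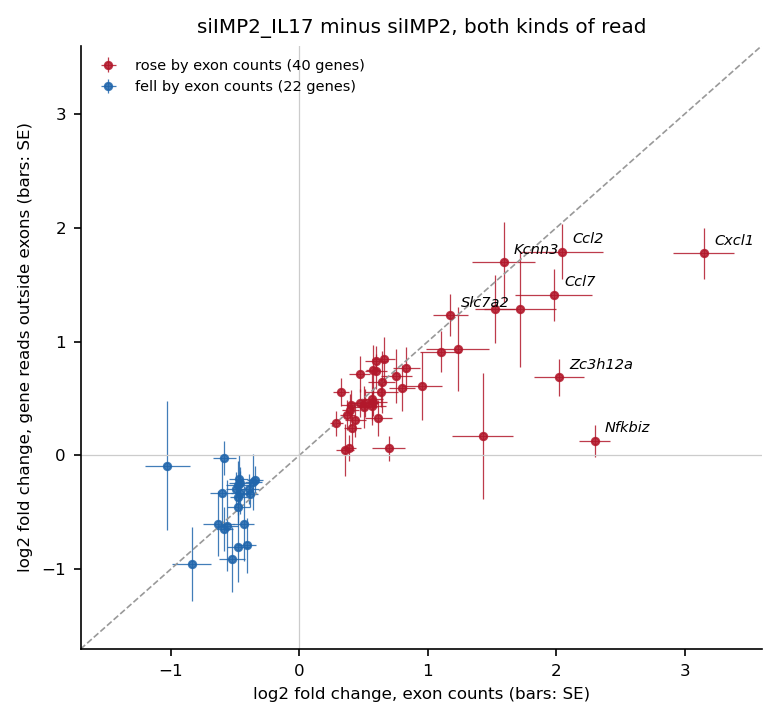
Log2 fold change (siIMP2_IL17 over siIMP2) in reads outside exons against that in exon counts for the genes that rose or fell in exon counts and were tested in both, with SE bars. Ccl2 and Slc7a2 lie near the line of equal change, while Nfkbiz, at 2.30 in exons and 0.13 outside, Cxcl1, at 3.15 in exons and 1.78 outside, and Zc3h12a lie below it.

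In the authors' deposited table for this contrast 6 genes had a false discovery rate below 0.05, and all 6 were among the 70. They are, with the log2 fold change of the authors' deposited table, Zc3h12a (1.94), Cxcl1 (3.15), Slc7a2 (1.2), Ccl2 (2.04), Ccl7 (1.97) and Nfkbiz (2.28). All 70 genes had the same sign in the authors' deposited table. Both sets of fold changes come from the same libraries and counts, so this overlap is no independent check. The size of the IL-17 effect differed between the title sets, over both siRNAs, for 5 of 13702 genes (0.0365%): Selp, Lcn2, Saa3, C3 and Mmp13. None of the 70 genes was among these 5, but Zc3h12a came close (0.94 as RB160 minus NA, edgeR adjusted p 0.0665). RB160 holds 1 library per group, so genes outside the 5 are not shown to respond alike in both sets.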

How the data were processed

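The study measured mRNA by RNA-seq in 12 libraries of mouse embryonic fibroblasts, grouped by label into siIMP2_IL17, siIMP2, siControl_IL17 and siControl. RNA was purified with a Qiagen RNeasy Mini kit, per the labels. The authors deposited, per gene and library, an unnormalised whole-number count of exon reads and the total reads of the gene. They also deposited TPM, scaled by exon length and depth. For the siIMP2 contrast the authors deposited log2 fold changes and a p-value corrected for false discovery, from an unnamed model. The file headers describe paired, trimmed reads, and mm10 is the build in the submitters' processing notes. Aligner, counter and strand handling: not given in the sources used here, so reads of overlapping, antisense or near-identical genes may be misassigned. Each of the 12 count columns in the joint table matched its library file.

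Exon count totals of the 6 libraries with the IMP2 siRNA were 34462068 to 41752198. The exon counts of all 12 libraries went into 1 edgeR 4.0.16 quasi-likelihood model (R 4.3.3) with TMM scaling and terms for group and title set, NA or RB160. Genes had to pass filterByExpr (minimum count 10, minimum total 15), which left 13702 of 48709. IL-17 was tested with each siRNA, as was the difference of these responses, and Benjamini-Hochberg adjusted p below 0.05 was a call. Reads outside exons, the gene's total reads minus its exon reads, had their own model and scaling factors. CPM on the log2 scale carried a prior count of 2, and differences within a title set are differences of mean log2 CPM. A group at 0 was set to 3 counts for lower bounds, which cover counting error only. Models were tested on simulated counts. Tables, promoter searches and figures came from Python 3.11.15 (pandas 2.3.3, matplotlib 3.10.9).

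The members, the 28 gene lists, the 8 marker lists and the tests were chosen with earlier results of these data known. Any changed gene with an established symbol could be named. Library values are given for the 12 risen and 8 fallen genes of smallest p and for changed members of lists. Of each list up to 4 members of smallest p could be named, and outside exons or for the response difference up to 5 genes per direction. Outside this rule, and chosen after their values were seen, are Bmp4, Cp, Cxcl12, Il17ra, Il34, Il6, Mmp3, Mmp13, Mt2, Nfkb1, Nfkb2, Odc1, Ptgis and Saa3. Replicate numbers follow accession order and pair nothing. The alternatives tried were other scaling (RLE, upper quartile), other tools (DESeq2 1.42.0, limma-voom in limma 3.58.1, edgeR's robust option), other count filters, uniquely mapped reads, a model without title set, smaller sets of libraries, a minimum log2 fold change of 1, and each library left out. A term for IL-17 by title set was added after seeing the data.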

Additional observations from a re-analysis of the deposited data

Results flagged for a closer look

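The size of the IL-17 effect differed between the RB160 and NA libraries, tested over both siRNAs with an IL-17 by title-set term that was chosen after seeing the data, for 5 of 13702 genes. None of the 5 passed in the pooled comparison with the IMP2 siRNA, and the cause of the set difference was not tested. As RB160 minus NA on the log2 scale, the fitted term was 8.36 for Saa3 (edgeR adjusted p 0.00235), an acute-phase apolipoprotein, 6.56 for Lcn2 (0.00235), 2.02 for Mmp13 (0.0236), 1.65 for Selp (0.00235) and 1.08 for C3 (0.00743). Saa3 measured 0.699, 0.596 and 1.5 CPM in the siIMP2_IL17 libraries, against 0.322, 0.379 and 0 CPM in the siIMP2 libraries. With the control siRNA Saa3 measured 1.89, 1.58 and 2.67 CPM in the siControl_IL17 libraries, against 0.874, 0.776 and 0 CPM in the siControl libraries. Both unstimulated RB160 libraries are at 0, so the fitted Saa3 term depends on the prior count and is no bound. Selp measured 67.3, 67.9 and 17.4 CPM in the siIMP2_IL17 libraries, against 33.2, 35.3 and 2.81 CPM in the siIMP2 libraries.

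With the IMP2 siRNA the log2 differences by IL-17 were 2.01 in NA and 6.71 in RB160 for Lcn2, 0.26 in NA and 2.27 in RB160 for Mmp13, 0.98 in NA and 2.61 in RB160 for Selp and 0.51 in NA and 1.48 in RB160 for C3. With the control siRNA they were 1.45 in NA and 7.56 in RB160 for Lcn2, 0.30 in NA and 1.99 in RB160 for Mmp13, 1.12 in NA and 2.74 in RB160 for Selp and 0.35 in NA and 1.53 in RB160 for C3. The genes were chosen by a term over both siRNAs, so a larger RB160 difference with each siRNA is nearly fixed by that choice and supports nothing further. For Saa3 no log2 difference by set is given, because of its counts of 0. In the unstimulated RB160 libraries Lcn2 was at 0.0709 CPM in siIMP2 and 0.143 CPM in siControl. Mmp13 was low there too, at 0.378 CPM in siIMP2 and 0.238 CPM in siControl. The sizes of their RB160 differences therefore rest on few reads and, most of all for Lcn2, depend on the prior count. RB160 holds 1 library per group, so within RB160 there is no replicate check.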

How the results depend on the processing

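With the IMP2 siRNA 70 genes changed. RLE and upper-quartile factors, limma-voom, the robust fit, at least 1 CPM in 3 libraries and uniquely mapped reads gave 62 to 85. DESeq2 gave 171 with the IMP2 siRNA and 193 with the control siRNA, where 58 changed. No filter beyond 1 count gave 179 and 221, and 94 in place of 14 outside exons. Without the title-set term there were 2 and 1, and 0 outside exons (edgeR, 190 at an unadjusted p below 0.05). A log2 fold change of at least 1 left 2 and 3, and 0 outside exons (edgeR, 24 at an unadjusted p below 0.05). Only the groups compared gave 349 and 100, and 63 outside exons. The NA libraries alone gave 46 with the IMP2 siRNA. Leaving out 1 library gave 13 to 117 with the IMP2 siRNA, 9 to 98 with the control siRNA and 3 to 35 outside exons.

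With the control siRNA, the count was 9 without siControl_IL17 replicate 3, 10 without siControl replicate 3, 18 without siControl_IL17 replicate 1 or 2, 23 without siControl replicate 2, 30, 32, 34 and 37 without siIMP2 replicate 2, siIMP2_IL17 replicate 1, siIMP2 replicate 1 and siIMP2_IL17 replicate 2, and 98 without siIMP2_IL17 replicate 3. Outside exons it was 3 without siIMP2_IL17 replicate 3, 4 and 7 without siIMP2 replicate 1 and 2, 8 without siIMP2_IL17 replicate 1 or siControl replicate 2, and 35 without siControl replicate 3. The cause of these shifts was not tested.

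The difference between the siRNAs gave 0 genes under every alternative run. The drop of Igf2bp2 with its siRNA kept its direction and call in those run for it. Of 185 gene results followed under the alternatives 6 turned sign under at least 1, and none of these 6 passed the threshold over all 12 libraries. With the NA libraries alone H19 was at 0.16, Cxcl12 at 0.0291 and Nfkbiz outside exons at -0.10. With 1 library left out, Cxcl12 ran from -0.27 to 0.13, Il17ra from -0.0466 to 0.0295, Igf2bp2 (by IL-17, with its siRNA) from -0.0651 to 0.27, Nfkbiz outside exons from -0.11 to 0.26 and the Zc3h12a difference between responses from -0.24 to 0.29. Rgs16, Prl2c2 and Serpina3h, named for reads outside exons, and the title-set term were not followed. Of the 70 genes 30 lost their call in at least 6 of the 12 fits that left out 1 library. Unique reads outside exons were not run. No pairing beyond the title set was fitted, because the labels do not state which libraries belong together. With 3 libraries a group, 2 of them from 1 title set, a gene that missed the threshold is not shown to be unaffected by IL-17.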

Other observations

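Among the risen genes outside every list are several with known roles in redox and iron metabolism. This grouping was chosen after their values were seen, so it carries no test. Hmox1, heme oxygenase-1, which releases iron from heme, averaged 425 ± 141 CPM in siIMP2_IL17 and 309 ± 111 CPM in siIMP2 (SD, n = 3 each), with a log2 fold change of 0.47 ± 0.09 (adjusted p 0.0320). Slc11a2, the iron importer DMT1, averaged 104 ± 7.20 CPM in siIMP2_IL17 and 71.2 ± 13.4 CPM in siIMP2, with a fold change of 0.57 ± 0.11 (adjusted p 0.0424). Sqrdl, the mitochondrial sulfide quinone oxidoreductase, averaged 25.4 ± 1.30 CPM in siIMP2_IL17 and 19.1 ± 0.592 CPM in siIMP2, with a fold change of 0.41 ± 0.06 (adjusted p 0.0124). Nfe2l1, a transcription factor related to NRF2, averaged 589 ± 106 CPM in siIMP2_IL17 and 471 ± 97.6 CPM in siIMP2, with a fold change of 0.33 ± 0.06 (adjusted p 0.0381). All adjusted p are edgeR's, and each gene lost its call in 5 to 8 of the 12 fits that left out 1 library. Each also lost it with the NA libraries alone, and Slc11a2 in the robust fit. With the control siRNA the log2 fold changes were 0.34 ± 0.09 for Hmox1, 0.57 ± 0.11 for Slc11a2, 0.39 ± 0.06 for Sqrdl and 0.24 ± 0.06 for Nfe2l1, of which Slc11a2 and Sqrdl passed (adjusted p 0.0492 and 0.0205).

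Other risen genes outside the lists, also picked after their values were seen, have roles at the cell surface and in signalling. On the log2 scale Cd47, the signal that restrains phagocytosis, rose by 0.37 ± 0.06 (adjusted p 0.0123) and Cdh11, a cadherin of mesenchymal cells, by 0.57 ± 0.11 (adjusted p 0.0369). Rbpj, the DNA-binding factor of Notch signalling, rose by 0.29 ± 0.05 (adjusted p 0.0205), the smallest change among the risen genes. Map2k6, a kinase of the p38 pathway, rose by 0.76 ± 0.12 (adjusted p 0.0158) with the IMP2 siRNA and was at 0.30 ± 0.11 with the control siRNA (adjusted p 0.302), a difference of 0.45 ± 0.16 (unadjusted p 0.0157, adjusted p 1.00). These calls were each lost in 4 to 7 of the 12 fits that left out 1 library. Each was also lost with the NA libraries alone, and that of Cdh11 in the robust fit.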
